A study of Mus musculus with 8 samples.

Results

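The replication-dependent histone genes of classes H1, H3 and H4 were followed in RNA precipitated with an antibody against DCP1A and in input RNA of the mouse ovary. They were taken as every gene row whose symbol begins with Hist1 to Hist4 followed by h1, h3 or h4, which gave 31 of 23107 rows: 6 H1, 12 H3 and 13 H4 genes. DCP1A is an activator of mRNA decapping and a component of P-bodies, the cytoplasmic granules in which mRNA is stored, deadenylated or decapped. The RIP group held 4 libraries of RNA recovered with an antibody against DCP1A by RNA immunoprecipitation (RIP), and the input group held 4 libraries of RNA from the same kind of tissue. Both came from ovarian cortex at postnatal day 8, and the labels name no genotype, strain, treatment or transgene. The question put was which RNAs are bound by DCP1A in primary oocytes. RNA came from whole cortex, so a difference in the share of a cell type and a difference in RNA per cell cannot be told apart. The 8 libraries analysed here included no precipitation with a control antibody, so binding to DCP1A itself was not tested. The labels do not say whether replicates came from separate animals, so each p-value refers to the spread among these 8 libraries, which may be technical.

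Histones H3 and H4 form the core of the nucleosome together with H2A and H2B, and H1 binds the linker DNA between nucleosomes. Their replication-dependent genes lie in clusters and are transcribed mainly in S phase. Instead of a poly(A) tail their mRNAs carry a terminal stem-loop, which is bound by the protein SLBP. At the end of S phase these mRNAs are rapidly degraded, and in mammalian cells the LSM ring, decapping and the exonuclease ERI1 take part. Growing mouse oocytes need SLBP to build up histone mRNA and protein. The libraries were made from total RNA with a kit that keeps strand, per the labels' protocols.

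Libraries held 13098153 to 25757618 estimated counts. The tissue label was borne out by its markers: the oocyte gene Zp3 averaged 370.6 ± 53.7 CPM (counts scaled to a common library size) in RIP and 327.0 ± 198.5 CPM in input, and the granulosa cell gene Foxl2 561.9 ± 122.2 CPM in RIP and 566.2 ± 180.1 CPM in input (SD, n = 4 each). Of 11 oocyte, 7 granulosa and 6 stromal marker genes tested, 0 passed edgeR's test after Benjamini-Hochberg adjustment. Over all genes tested, 0% passed as higher and 0.0409% as lower, so the count does not show equal cell content. At an unadjusted p below 0.05, 2 stromal genes were lower, as were 4.28% of all genes tested. Summed, the oocyte markers had 1522 to 2132 CPM in RIP and 1759 to 2516 CPM in input, granulosa markers 1488 to 2384 CPM in RIP and 1306 to 2567 CPM in input, and stromal markers 2983 to 5223 CPM in RIP and 2846 to 4416 CPM in input. Endothelial markers summed to 57.1 to 92.8 CPM in RIP and 36.3 to 91.3 CPM in input, and immune markers to 2.0 to 4.4 CPM in RIP and 0.42 to 2.62 CPM in input. The haemoglobin genes Hba-a1 and Hba-a2 together held at most 0.296 CPM in RIP and 0.0681 CPM in input. Input libraries 1 and 2 were the shallowest, and their scaled level of histone RNA was higher than that of input libraries 3 and 4.

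The 31 genes lie on chromosome 13 (26 genes), chromosome 3 (4 genes) and chromosome 6 (1 gene), and none overlaps another gene annotated in RefSeq assembly GRCm38.p6. Copies within the H3 and H4 classes are near-identical in their coding sequence, so a gene's row may hold reads of another copy. Sums over a class are given beside the single rows, and coding sequences were not compared here. Promoter windows from RefSeq (GRCm38.p6) were found for 28 of the 31 genes and are shown for the genes on which the results turn. The 150 bases before the annotated start are printed for Hist1h1c at chr13:23738657-23738806 (plus strand), the H1 row with most counts, and Hist1h3c at chr13:23745522-23745671 (minus strand), the H3 row with the lowest p. The H4 genes shown are Hist1h4d at chr13:23581418-23581567 (plus strand), which had the lowest p of its class, and Hist4h4 at chr6:136804432-136804581 (minus strand), which had the most counts. The closely related copies Hist1h4m at chr13:21811596-21811745 (plus strand) and Hist1h4n at chr13:21832198-21832347 (minus strand) are set beside each other. Capitals mark matches on either strand to CCAAT (the box bound by NF-Y), to the TATA box letters TATAAA, to the H1 box letters AAACACA and, for histone H4, to the letters GGTCCG of the promoter element bound by HINFP.
Hist1h1c: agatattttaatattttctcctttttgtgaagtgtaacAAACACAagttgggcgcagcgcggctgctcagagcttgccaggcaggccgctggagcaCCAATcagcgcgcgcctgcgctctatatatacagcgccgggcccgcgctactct
Hist1h3c: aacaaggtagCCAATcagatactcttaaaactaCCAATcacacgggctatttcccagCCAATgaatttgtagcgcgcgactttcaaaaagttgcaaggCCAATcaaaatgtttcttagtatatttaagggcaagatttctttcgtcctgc
Hist1h4d: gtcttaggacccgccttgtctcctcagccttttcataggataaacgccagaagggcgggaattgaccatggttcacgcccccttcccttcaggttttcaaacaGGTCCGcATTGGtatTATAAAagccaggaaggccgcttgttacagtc
Hist4h4: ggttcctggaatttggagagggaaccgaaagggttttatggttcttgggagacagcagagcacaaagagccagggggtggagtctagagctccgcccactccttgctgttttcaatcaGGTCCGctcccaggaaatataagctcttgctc
Hist1h4m: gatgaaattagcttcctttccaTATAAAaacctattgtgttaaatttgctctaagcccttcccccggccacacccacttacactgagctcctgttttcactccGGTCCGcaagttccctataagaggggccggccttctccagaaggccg
Hist1h4n: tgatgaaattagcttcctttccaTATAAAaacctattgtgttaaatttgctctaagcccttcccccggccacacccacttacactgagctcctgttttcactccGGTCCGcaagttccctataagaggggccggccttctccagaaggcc

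Over the 250 bases before the start and on both strands, AAACACA was found in 5 of 6 H1 windows, 0 of 10 H3 windows and 0 of 12 H4 windows, against 6.25% of all 32851 RefSeq promoter windows of that length. GGTCCG was found in 9 of 12 H4 windows, 1 of 10 H3 windows and 0 of 6 H1 windows, against 6.72% of all windows. CCAAT occurred in 6 of 6 H1, 8 of 10 H3 and 3 of 12 H4 windows (33.8% of all), and TATAAA in 4 of 6, 4 of 10 and 6 of 12 in the same order (12.4% of all). The classes differed in which of these letters their windows held, and within a class most windows were distinct. The median identity of aligned pairs was 55.7% among H1, 49.8% among H3 and 49.4% among H4 windows. Hist1h4m and Hist1h4n were 99.2% identical, Hist2h3c1 and Hist2h3c2 88.7%, and Hist1h4j and Hist1h4k 86.0%, and no other pair was above 62.1%. Hist1h4n, whose window nearly matches that of Hist1h4m, had 0 counts in all 8 libraries, where 3 counts would be 0.102 to 0.255 CPM, while Hist1h4m had 27.1 to 79.3 CPM in RIP and 15 to 50.4 CPM in input. How reads were divided between such copies is not given in the sources used here.

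Per kb of annotated gene, Hist1h1c was the most abundant H1 row, at 1573.5 CPM per kb in RIP and 1073.8 in input. It encodes the somatic linker histone H1.2. Hist1h1d followed at 438.0 CPM per kb in RIP and 269.2 in input, and the testis variant gene Hist1h1t was lowest at 7.48 in RIP and 2.09 in input. Among H4 rows Hist4h4, a gene outside the main clusters, led at 700.8 CPM per kb in RIP and 519.0 in input, followed by Hist1h4d at 459.1 in RIP and 229.2 in input and Hist1h4h at 322.5 in RIP and 205.1 in input. H3 rows ranged per kb from 0.651 CPM per kb in RIP and 0.642 in input for Hist2h3c1 up to 67.8 in RIP and 47.2 in input for Hist1h3a. Hist1h1c supplied 55.4 ± 3.38% of all H1 counts in RIP and 54.4 ± 7.28% in input (SD, n = 4 each), so the H1 sum is largely a measure of this gene. No single gene held so large a share of the H4 counts, where Hist4h4 had 30.9 ± 1.42% in RIP and 36.4 ± 3.85% in input.

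**Figure D1:**
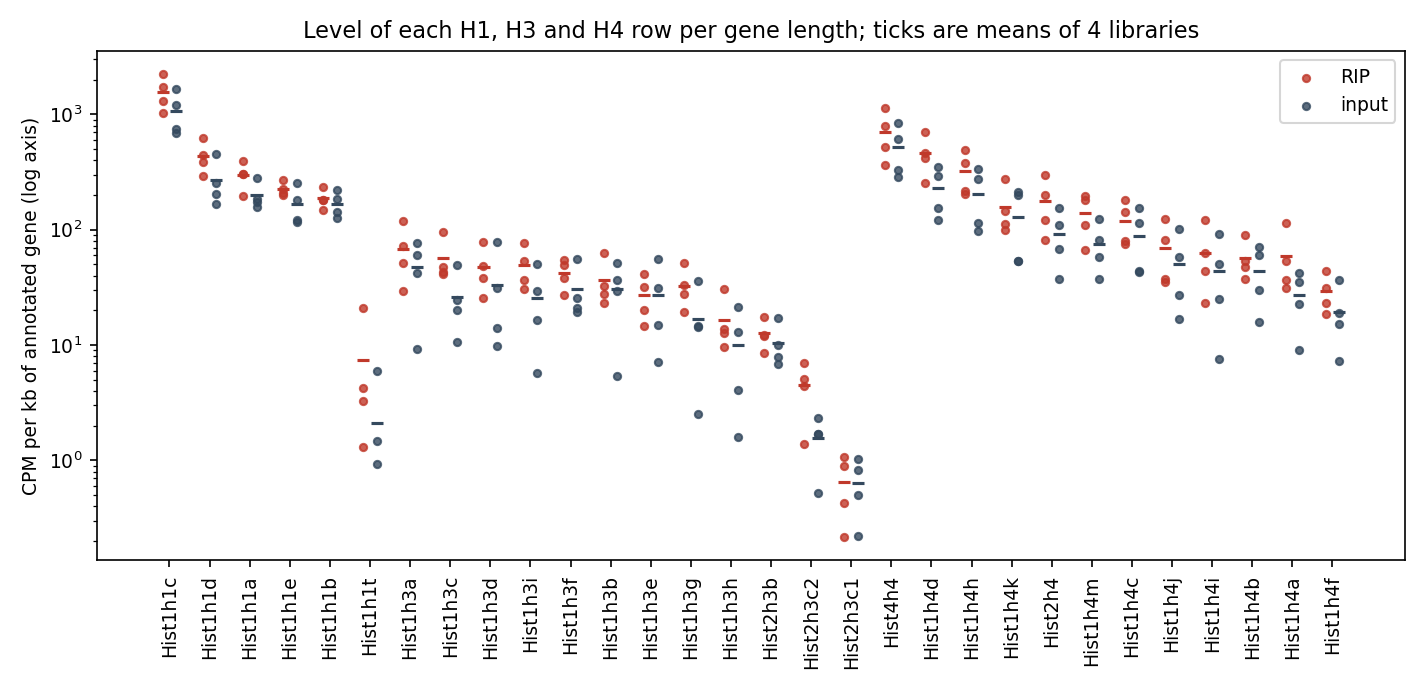
Level of the H1, H3 and H4 rows per kb of annotated gene (y axis, log scale, CPM per kb), ordered within each class, with a point per library and a tick for the mean of 4 RIP (red) and 4 input (dark) libraries. Hist1h1c and Hist4h4 lead their classes, and Hist1h4n and the input library of Hist1h1t with 0 counts cannot be drawn on this axis.

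Summed over their genes, H1, H3 and H4 each had a higher mean in RIP, and in each class the libraries of the groups overlapped. The summed H1 rows had 2718, 2224, 1778 and 1416 CPM in RIP libraries 1 to 4, against 1422, 2021, 1179 and 983.8 CPM in input libraries 1 to 4. RIP libraries 1 and 2 stood above all input libraries, and RIP 4 lay just below input 1. The mean log2 difference of H1, RIP minus input, was 0.55 ± 0.30 (SE, n = 4 each). Taken by replicate number, its SE was 0.16, with RIP above input at 4 of 4 numbers. Here and below, the pairs by number are an assumption: no label gives them, and these same data do not single them out.

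The summed H4 rows had 1565, 1089, 728.7 and 551.4 CPM in RIP libraries 1 to 4, against 851.2, 1006, 353.5 and 348.8 CPM in input libraries 1 to 4. Every RIP library was above inputs 3 and 4, and RIP 3 and 4 were below inputs 1 and 2. The mean log2 difference of H4 was 0.67 ± 0.52 (SE), and by replicate number its SE was 0.20, with RIP above input at 4 of 4 numbers.

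The summed H3 rows had 344.4, 235.9, 181.6 and 134.6 CPM in RIP libraries 1 to 4, against 184.9, 268.3, 77.0 and 80.6 CPM in input libraries 1 to 4. Their order among the libraries was that of H4 except that input 2 exceeded RIP 2, and inputs 3 and 4 changed places. The mean log2 difference of H3 was 0.67 ± 0.53 (SE), and by replicate number its SE was 0.30, with RIP above input at 3 of 4 numbers. Over all 31 rows the log2 difference was 0.58, with an SE of 0.37 between groups and of 0.17 by number. The SE by number is the smaller in each class, and these sums were given no p. The H3 difference was 0.44 without RIP 1, 0.41 without input 3, 0.43 without input 4 and 1.01 without input 2. The H4 difference was 0.41 without RIP 1, 0.44 without input 3 and 0.44 without input 4. With each library left out in turn, it ranged from 0.41 up to 0.95.

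All 31 rows together made up 0.384, 0.351, 0.284 and 0.237% of the counts of RIP libraries 1 to 4, against 0.223, 0.295, 0.183 and 0.155% in input libraries 1 to 4. These shares need no scaling between libraries, and they kept the same order within each group as the scaled sums. The groups overlapped, since input 2 held a larger share than RIP 3 and 4. The spread within a group was as large as the difference between groups, with the highest summed level 2.20 times the lowest among RIP libraries and 2.33 times among input libraries. The 31 rows averaged 4089 CPM in RIP libraries 1 and 2 and 2395 CPM in RIP libraries 3 and 4, and 2877 CPM in input libraries 1 and 2 and 1511 CPM in input libraries 3 and 4. In both groups the scaled level of histone RNA was thus higher in the libraries numbered 1 and 2 than in those numbered 3 and 4. Zp3 followed a like order among input libraries, with 406.8, 416.9, 359.5 and 299.3 CPM in RIP libraries 1 to 4 against 345.4, 601.0, 185.5 and 176.0 CPM in input libraries 1 to 4, and so did Foxl2, with 726.7, 578.6, 450.6 and 491.7 CPM in RIP against 694.8, 747.1, 407.8 and 414.9 CPM in input. Some other oocyte and granulosa markers did not follow this order. Input libraries 1 to 4 had 370.5, 549.0, 664.8 and 650.3 CPM for the oocyte gene Nlrp5. For the granulosa gene Wt1 they had 388.3, 321.8, 436.1 and 361.2 CPM. The part of these markers in the result was not tested.

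**Figure D2:**
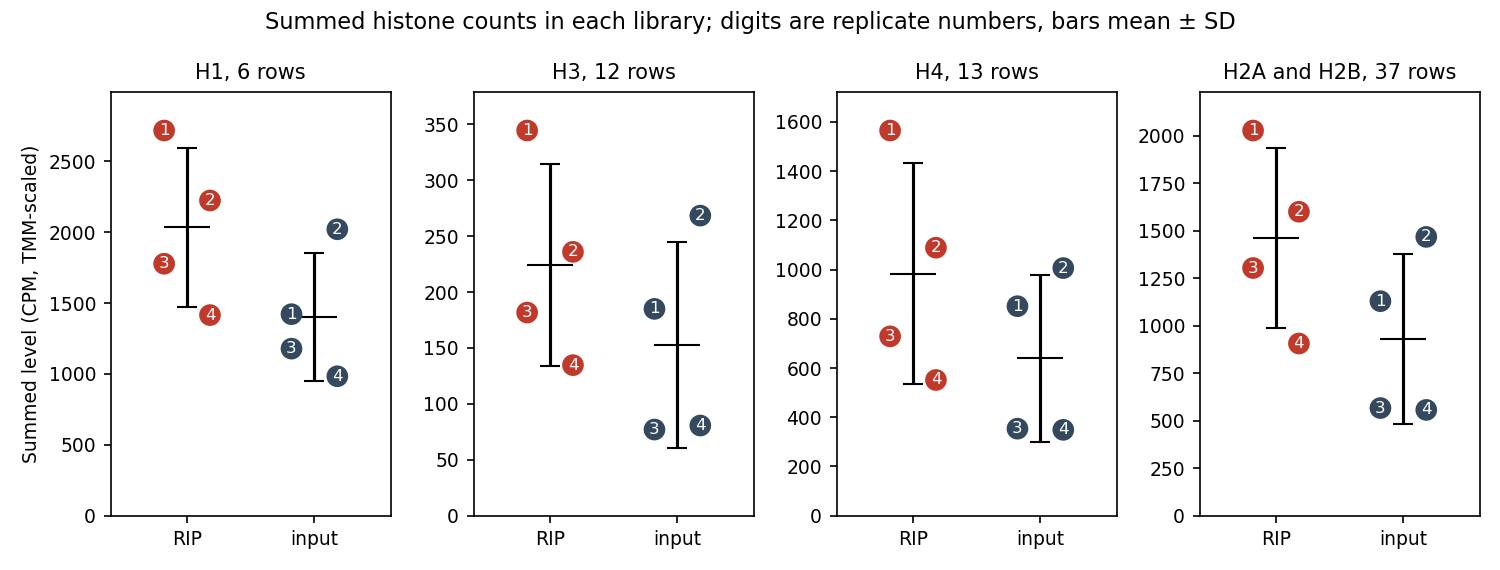
Summed level (y axes, CPM after TMM scaling) of the H1, H3, H4 and, for comparison, H2A and H2B rows in 4 RIP (red) and 4 input (dark) libraries, with the replicate number in each point and bars for mean ± SD. In every panel the RIP mean is higher and the groups overlap, and inputs 3 and 4 are the lowest libraries.

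In the H1 class, Hist1h1c had 1625, 1253, 940.0 and 745.0 CPM in RIP libraries 1 to 4, against 881.5, 1191, 546.4 and 495.4 CPM in input libraries 1 to 4. RIP was above input at each of the 4 replicate numbers, by a small margin at number 2. Its log2 fold change was 0.55 ± 0.32 (SE; edgeR, adjusted p = 0.731).

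Hist1h1d, which encodes H1.3, had 485.7, 343.7, 301.7 and 228.4 CPM in RIP, against 195.7, 352.3, 158.7 and 128.8 CPM in input. Only input 2 reached the RIP range. Its log2 fold change was 0.70 ± 0.32 (edgeR, unadjusted p = 0.0431, adjusted p = 0.656), and Hist1h1a, which encodes H1.1, was close to it at 0.59 ± 0.27 (unadjusted p = 0.0417, adjusted p = 0.655).

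Hist1h1e, the gene of H1.4, had 155.9, 209.1, 164.0 and 176.8 CPM in RIP, against 90.5, 95.1, 197.7 and 140.2 CPM in input, so input 3 was its highest input library. Its log2 fold change was 0.43 ± 0.27. Hist1h1b, the gene of H1.5, had the smallest H1 fold change at 0.15 ± 0.25, with 117.2 to 187.5 CPM in RIP and 100.1 to 175.0 CPM in input. Hist1h1t had the largest fitted value at 1.84 ± 1.2, resting on 20 to 210 counts per RIP library and 0 to 52 counts per input library, with RIP 1 alone at 210. Its log2 fold change was 0.50 without RIP 1 and 3.16 without input 1.

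In the H4 class, Hist1h4d had 280.2, 186.1, 169.7 and 102.3 CPM in RIP libraries 1 to 4, against 117.0, 141.5, 61.4 and 48.7 CPM in input libraries 1 to 4. RIP was above input at each number, and only RIP 4 fell within the input range. Its log2 fold change was 1.00 ± 0.36 (edgeR, unadjusted p = 0.0132, adjusted p = 0.622).

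No label pairs the libraries, so a block by replicate number is an assumption drawn from these same data. When replicate number entered the fit as a block, RIP was compared with input of the same number. Hist1h4d was then the only member past the threshold, at a log2 fold change of 1.05 ± 0.22 (edgeR, adjusted p = 0.027). It also passed when the block was number 1 and 2 against number 3 and 4 (1.08, adjusted p = 0.0248). Over all 24 alternatives its adjusted p lay between 0.0204 and 1.0, with 4 calls. The blocked call held without number 2 (adjusted p = 0.0204) and without number 4 (0.0483), and was lost without number 1 (0.353) and without number 3 (0.0818). Within a library, Hist1h4d made up 17.9, 17.1, 23.3 and 18.5% of all H4 counts in RIP, against 13.7, 14.1, 17.4 and 14% in input. This share does not depend on scaling between libraries, and RIP was above input at each number, although RIP 2 lay below input 3. Hist1h4d was singled out by these same counts, so its share is no separate support for the call. The share averaged 19.2 ± 2.78% in RIP and 14.8 ± 1.73% in input (SD, n = 4 each).

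Hist4h4 had 493.9, 349.7, 227.6 and 159.3 CPM in RIP, against 270.9, 370.2, 126.7 and 143.7 CPM in input. Input 2 was above 3 of the RIP libraries, and the log2 fold change was 0.43 ± 0.38 (edgeR, adjusted p = 0.811). Hist1h4h, with 89.4 to 212.6 CPM in RIP and 42.1 to 145.5 CPM in input, was above input at each number (log2 0.66 ± 0.39). Hist2h4 (log2 0.94 ± 0.44, with 31.5 to 115.1 CPM in RIP and 14.3 to 58.7 in input) and Hist1h4m (0.88 ± 0.40) were too, and so was Hist1h4a, which had the largest fitted value of the class at 1.11 ± 0.51.

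At the other end of the H4 class, Hist1h4k had 40.7 to 111.6 CPM in RIP and 21.8 to 86.0 CPM in input, with a log2 fold change of 0.29 ± 0.46. Without RIP 1 that value was -0.11. Its neighbour in promoter sequence, Hist1h4j, was at 0.46 ± 0.53, and Hist1h4c, with 28.0 to 67.2 CPM in RIP and 16 to 58.2 CPM in input, at 0.42 ± 0.43. The remaining H4 rows Hist1h4b, Hist1h4f and Hist1h4i had log2 fold changes of 0.37, 0.59 and 0.52. Many H4 values depended on single libraries. Without RIP 1 the log2 fold change was 0.11 for Hist4h4, 0.02 for Hist1h4j, 0.16 for Hist1h4c, 0.39 for Hist1h4h and 0.56 for Hist2h4. Without input 2 it was 0.77 for Hist4h4, 1.04 for Hist1h4j, 0.84 for Hist1h4c, 1.0 for Hist1h4h and 1.3 for Hist2h4.

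In the H3 class, Hist1h3c had 45.8, 22.7, 20.6 and 19.9 CPM in RIP libraries 1 to 4, against 23.7, 11.8, 5.08 and 9.58 CPM in input libraries 1 to 4. RIP was above input at each number, and input 1 alone lay above RIP 2 to 4. Its log2 fold change was 1.12 ± 0.46 (edgeR, unadjusted p = 0.0281, adjusted p = 0.625).

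Hist1h3i was also above input at each number, with 37.3, 25.8, 17.8 and 14.8 CPM in RIP against 14.3, 24.5, 7.90 and 2.77 CPM in input (log2 0.96 ± 0.54). Hist1h3g had 9.46 to 25.1 CPM in RIP and 1.23 to 17.7 CPM in input (0.97 ± 0.61), and Hist1h3h 4.69 to 14.8 CPM in RIP and 0.783 to 10.4 CPM in input (0.75). The H3 row with the most counts, Hist1h3f, had 49.7, 44.7, 34.5 and 24.6 CPM in RIP against 23.2, 50.4, 17.6 and 18.9 CPM in input, and input 2 was its highest library (0.48 ± 0.38). Hist1h3a (0.53 ± 0.53) and Hist1h3d (0.52 ± 0.56) likewise had their highest input library at number 2. Without input 2 the log2 fold change was 0.95 for Hist1h3f, 0.87 for Hist1h3a and 1.38 for Hist1h3d, and without RIP 1 it was 0.34, 0.11 and 0.17 for the same genes.

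Hist1h3e was the only member with a fold change below 0, at -0.01 ± 0.52, with 13.3 to 37.3 CPM in RIP and 6.52 to 50.8 CPM in input. Its sign turned with upper quartile scaling and with library size alone (0.03 in both). Hist1h3b and Hist2h3b were at 0.25 and 0.26. Of the pair with similar promoters on chromosome 3, Hist2h3c2 had 0.903 to 4.55 CPM in RIP and 0.341 to 1.51 CPM in input (1.52 ± 1.08), and Hist2h3c1, with 3 to 15 counts per RIP library and 4 to 16 counts per input library, did not pass the low-count filter.

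Of the 31 members, 29 passed the filter on low counts and were tested, Hist1h4n and Hist2h3c1 being left out. After Benjamini-Hochberg adjustment 0 members passed edgeR's quasi-likelihood test in either direction, against 0% of all 14667 genes tested called higher and 0.0409% called lower. At an unadjusted p below 0.05, 7 members were higher (3.15% of all genes tested were) and 0 lower (4.28% of all). These were Hist1h1a, Hist1h1d, Hist1h3c, Hist1h4a, Hist1h4d, Hist1h4m and Hist2h4. DESeq2 also called 0 members (0.0886% of all genes higher, 0.293% lower), and 7 were higher at an unadjusted p below 0.05 (3.7% of all genes higher, 5.27% lower). Limma voom with sample weights called 0 (0% of all genes higher, 0.136% lower), and 11 were higher at that unadjusted p (4.34% of all genes higher, 4.21% lower). Under the replicate block 1 member (Hist1h4d) was called higher (0.0886% of all genes higher, 0.286% lower), and 14 were higher at that unadjusted p (6.64% of all genes higher, 6.16% lower). The block of number groups gave 1 member (0.0818% of all genes higher, 0.293% lower) and 14 at that unadjusted p (6.61% of all genes higher, 7.25% lower).

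Of the 29 members, 28 had a fold change above 0, against 48.3% of all genes tested. The median log2 fold change was 0.55 over the 29 members and -0.02 over all genes, and by class it was 0.57 for H1, 0.53 for H3 and 0.56 for H4. The H3 median was 0.89 under the replicate block, 0.81 with the number groups as the block and 1.14 by limma voom. No member had all RIP libraries above all input libraries, which 2.77% of all genes tested had, and none had all RIP below all input libraries, which 2.52% had. The count of members at an unadjusted p below 0.05 changed with single libraries. It was 0 without RIP 1, 1 without input 4, 2 without input 3 or RIP 2, and 12 without input 2. Over all genes the count higher at that p moved too, from 462 of 14667 with all libraries. It was 217 of 15115 without RIP 1, 602 of 14997 without input 4 and 439 of 14964 without input 3. It was 297 of 14971 without RIP 2 and 763 of 15130 without input 2. The median of the members was 0.33 without RIP 1 and 0.93 without input 2. Members share libraries and may share reads, so these counts are not over independent genes.

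**Figure D3:**
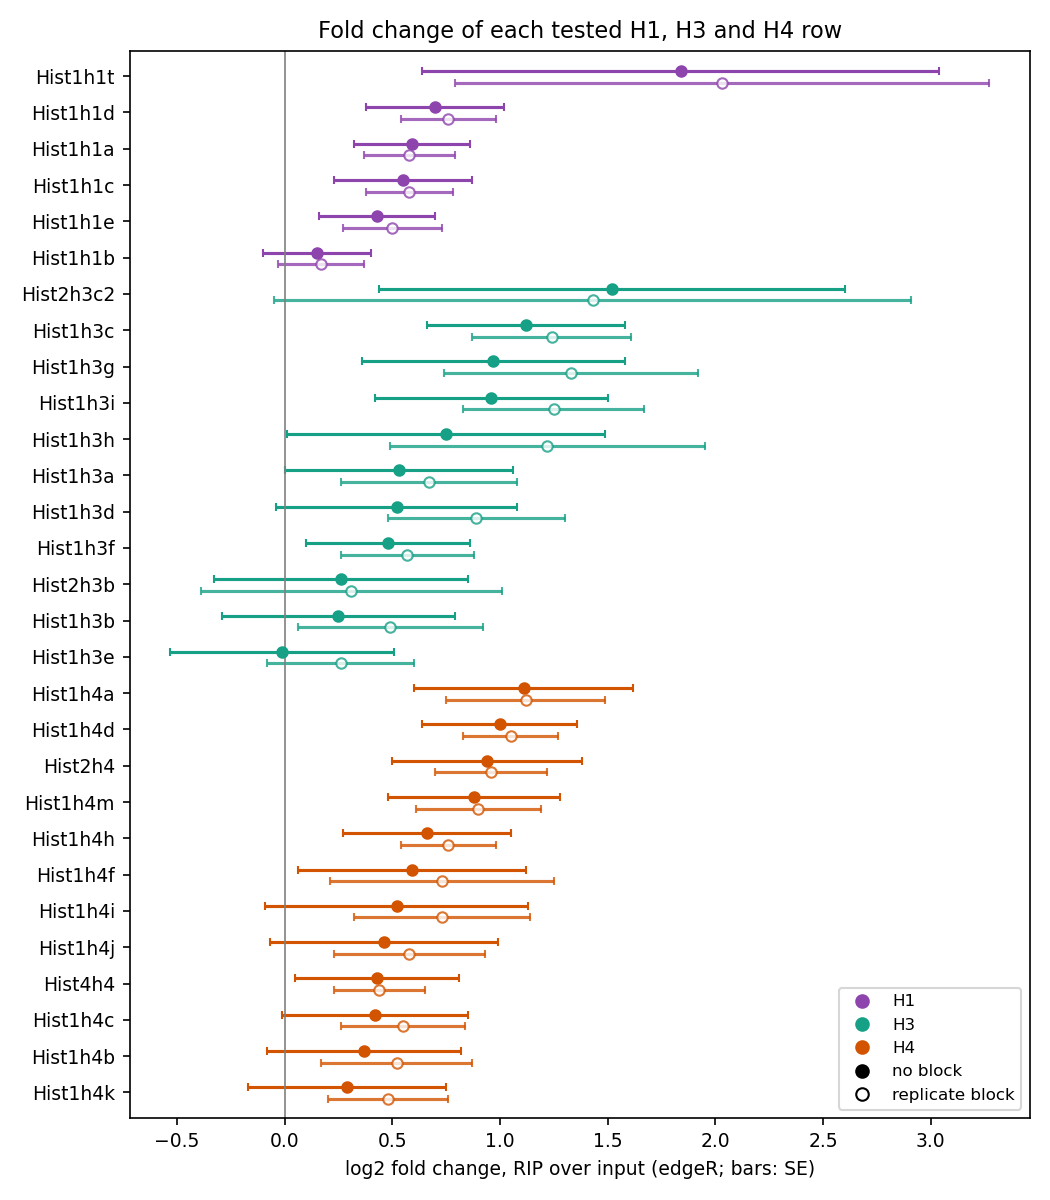
Log2 fold change of RIP over input (x axis) with its standard error for the 29 tested rows, coloured by class, from edgeR without a block (filled) and under the replicate block (open). Of the filled points 28 lie above 0, and Hist1h4d is the member called with the block.

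Set against the input of its own number, each RIP library could be compared on its own. RIP 1 was above input 1 for 29 of 29 members (median log2 ratio 0.88), RIP 3 above input 3 for 26 (0.92) and RIP 4 above input 4 for 25 (0.59). RIP 2 was above input 2 for 15 of 29 members (median 0.07), so the difference was not seen at this number. Over all genes tested the median ratio was 0.01, 0.05, 0.01 and 0.01 for numbers 1 to 4.

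For the class sums RIP was 1.91-fold, 1.1-fold, 1.51-fold and 1.44-fold of input at numbers 1 to 4 for H1. The sums of H4 gave 1.84, 1.08, 2.06 and 1.58, and those of H3 gave 1.86, 0.879, 2.36 and 1.67. Number 2 was thus the lowest in all 3 classes, and input 2 was the input library with the highest histone sum. In all, 10 members were above input at each of the 4 numbers, which 10.8% of all genes tested were. They were Hist1h1a, Hist1h1c, Hist1h3c, Hist1h3i, Hist1h4a, Hist1h4d, Hist1h4f, Hist1h4h, Hist1h4m and Hist2h4.

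**Figure D4:**
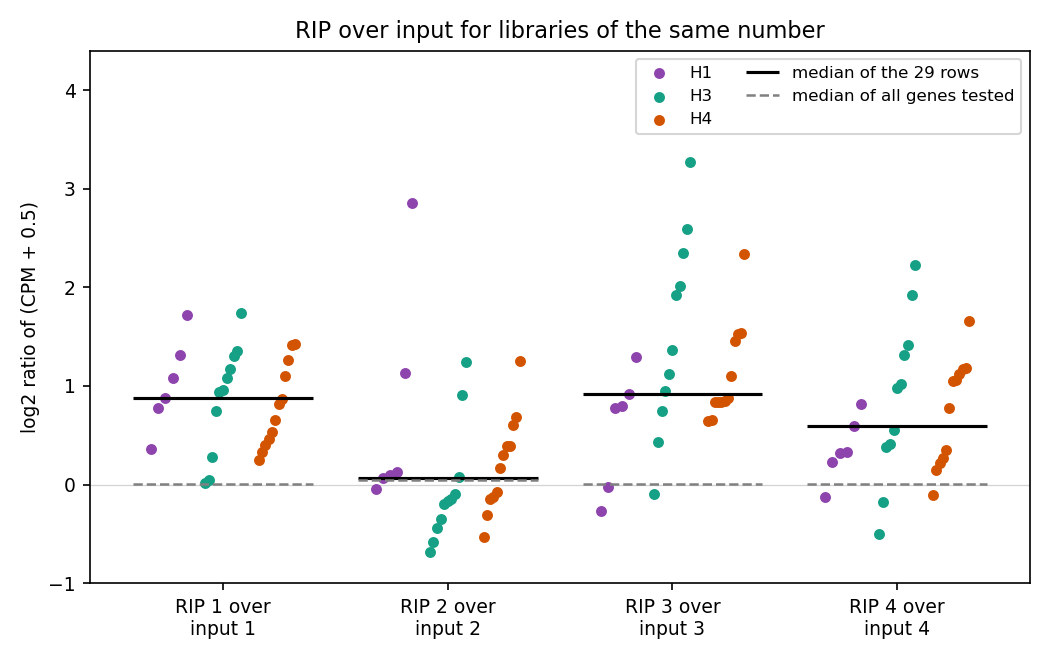
Log2 ratio of RIP over input, on (CPM + 0.5), for libraries of the same number (x axis), with a point for each of 29 rows coloured by class. Solid lines mark the median of the rows (0.88, 0.07, 0.92 and 0.59) and dashed lines the median of all genes tested; number 2 stands near 0.

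The classes moved together from library to library. The log2 ratio of summed H3 to summed H4 counts lay between -2.21 and -2.0 in RIP and between -2.20 and -1.91 in input, so in these 8 libraries it varied far less than either sum. The log2 ratio of H1 to H4 was less constant, at 0.80, 1.03, 1.29 and 1.36 in RIP libraries 1 to 4, against 0.74, 1.01, 1.74 and 1.5 in input libraries 1 to 4. It was lower in the libraries numbered 1 and 2 of both groups, which had the highest scaled histone levels, and its difference of RIP minus input was -0.13 ± 0.26 (SE). H2A and H2B rows, the other core classes, summed to 2026, 1599, 1303 and 905.7 CPM in RIP, against 1129, 1467, 566.2 and 556.4 CPM in input. Their median log2 fold change was 0.61 over 29 tested of 37 rows, with 0 called (0% of all genes higher, 0.0409% lower). At an unadjusted p below 0.05, 5 were higher, as were 3.15% of all genes tested. The log2 ratio of H1, H3 and H4 to H2A and H2B differed by -0.14 ± 0.10 between RIP and input. Hist1h2ac was the 1 row of the 29 tested with all RIP above all input libraries, which 2.77% of all genes tested had. It had 93.4, 57.8, 51.0 and 58.9 CPM in RIP and 47.5, 48.7, 13.9 and 19.4 CPM in input (log2 1.02 ± 0.39, edgeR adjusted p = 0.622).

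Replacement histone genes, whose mRNAs are polyadenylated and made outside S phase too, had a median log2 fold change of -0.10 over 12 tested genes. Of these, 0 were called by edgeR (0% of all genes higher, 0.0409% lower). At an unadjusted p below 0.05 there were 0, against 3.15% of all genes higher and 4.28% lower. With 12 genes, a count of 0 is close to these shares. H3f3a, which encodes the replacement histone H3.3, had 69.2 to 91.8 CPM in RIP and 63.4 to 140.6 CPM in input (-0.56 ± 0.27). H2afx, whose transcripts can end in a stem-loop as well as in a poly(A) tail, had 217.6, 152.5, 100.4 and 74.7 CPM in RIP against 119.2, 131.4, 58.7 and 61.8 CPM in input. Its log2 fold change was 0.56 ± 0.35 (edgeR, unadjusted p = 0.134, adjusted p = 0.745). In this list 2 genes, H2afx among them, were above input at each number, as were 10.8% of all genes tested. H2afz was at -0.29 ± 0.30.

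S phase genes did not share the direction of the histone genes as a list. Over 49 genes tested the median log2 fold change was -0.03, and 0 were called by edgeR (0% of all genes higher, 0.0409% lower). At an unadjusted p below 0.05, 4 were higher and 1 lower, against 3.15% and 4.28% of all genes tested. Summed, they had 3166 to 3540.0 CPM in RIP and 3037 to 3351 CPM in input, a narrow range beside that of the histone sums. Tonsl, which reads newly deposited histone H4 behind the replication fork, had 72.0 to 109.8 CPM in RIP and 27.7 to 50.5 CPM in input (1.05 ± 0.27, adjusted p = 0.437). Uhrf1, the maintenance factor of DNA methylation, was at 0.60 ± 0.22, and Hat1, which acetylates new H4, at -0.76 ± 0.29.

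Among genes for histone mRNA transcription, processing and decay, 0 of 36 tested passed edgeR's test (0% of all genes higher, 0.0409% lower). Their median log2 fold change was -0.09. At an unadjusted p below 0.05, 3 were higher and 6 lower, where the shares over all genes tested were 3.15% and 4.28%. Slbp had 47.0, 61.1, 69.2 and 61.6 CPM in RIP against 78.2, 81.3, 55.1 and 70.0 CPM in input (-0.25 ± 0.25). Npat, the transcriptional coactivator of histone genes, was at -0.76 ± 0.35, and Casp8ap2 (FLASH), which works in histone pre-mRNA cleavage, had 6.13 to 19.0 CPM in RIP and 18.9 to 59.9 CPM in input (-1.35 ± 0.45, adjusted p = 0.622). The U7 particle proteins Lsm10 (-0.21 ± 0.44) and Lsm11 (0.11 ± 0.32), the cleavage enzyme Cpsf3 (-0.29 ± 0.27) and the exonuclease Eri1 (-0.15 ± 0.29) had smaller differences. Sympk, the scaffold of the cleavage complex, had 367.9 to 507.5 CPM in RIP and 208.5 to 318.8 CPM in input (0.61 ± 0.23), with no overlap. Of the 36 genes, 2 had all RIP above all input libraries, and 1 (Snrpe) had all RIP below. Over all genes tested the shares were 2.77% and 2.52%. Snrpe (-1.14 ± 0.30) and Snrpg (-1.29 ± 0.42), which encode Sm proteins shared by U7 and the spliceosomal particles, had the lowest p in this list together with Casp8ap2. The U7 small nuclear RNA gene Rnu7 had 0 counts in all 8 libraries.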

How the data were processed

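Libraries of 4 RIP and 4 input samples were compared. The authors deposited a table of estimated counts (expected counts) per gene, of which up to 1.85% per library were fractional (tolerance 1e-09), and no further normalization was visible. The submitters' processing notes name the genome build mm10. The sources used here name no aligner, counter, annotation or strand setting. Antisense genes and near-identical copies therefore cannot be told apart. Floors of 3 counts cover counting error only, as use of molecular identifiers is unstated.

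Values were rounded to whole numbers. The design had been written for counts, and the same test was kept. In R 4.3.3, edgeR 4.0.16 was fitted on the whole table (TMM factors, filterByExpr with a minimum count of 10 and total of 15, robust quasi-likelihood test, Benjamini-Hochberg adjustment over 14667 genes, threshold 0.05). DESeq2 1.42.0 and limma 3.58.1 (voom with sample weights) were alternatives. CPM are TMM-scaled. The standard error of a fold change is its size divided by the square root of F. No p is given for sums or lists.

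Same-numbered libraries deviated together from their group means over all genes (r = 0.213, 0.116, 0.206 and 0.137 for numbers 1 to 4). The numbers were taken as pairs, an assumption that no label gives. The correlations did not single out these pairs, since RIP 4 was closer to input 3 (r = 0.348) than to input 4. RIP 1 was nearly as close to input 2 (0.193) as to input 1. Libraries numbered 1 or 2 set against those numbered 3 or 4 gave r of -0.321 to -0.062.

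Symbols were matched to RefSeq GRCm38.p6 (20546 by symbol, 2292 by synonym, 269 unmatched; all 31 members by synonym), which gave coordinates (1-based) and promoter sequences.

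The genes and lists were chosen with earlier results of these data known. Named were all tested H1 genes, the 6 H3 and 8 H4 genes with most CPM, the 3 with the lowest p and both ends of each class, genes past the threshold, 9 processing genes, and the 3 with the lowest p of each comparison list. Other members are given in brief. The fit was tested on simulated data with changes larger than that of any member here. They were planted only in genes above the median level, with no difference between replicate numbers. This does not show what the fit finds at smaller differences.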

Additional observations from a re-analysis of the deposited data

Results flagged for a closer look

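Of 100 groups of 4 libraries checked, for the genes named by rule, the class sums and their ratios, 1 held a library far from the others, where chance gives about 1 in 20. For Hist1h3c in RIP, the gap between RIP 1 (45.8 CPM) and the next library was 0.846 of the whole range on the log2 scale, and the other RIP libraries had 19.9 to 22.7 CPM. RIP 1 was also the highest library for the H1, H3 and H4 sums.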

How the results depend on the processing

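The common biological coefficient of variation was 0.559 over 4 libraries a group, and what difference a single histone row could show at this depth was not tested. Over all genes, 0 higher and 6 lower in the fit without a block became 13 and 43 by DESeq2, 20 lower by limma voom, 13 and 42 with the replicate block, 12 and 43 when number groups were the block, and 3 and 24 within numbers 1 and 2. The number of members called higher was 1 with either block and 0 in each fit without a block. The block changed no other call among the members. Leaving out a replicate gave 0 to 1 higher and 4 to 16 lower over all genes (16 without RIP 1, 15 without input 3), 0 members called, and medians of 0.33 to 0.93 for the members, 0.46 to 0.82 for H1, 0.23 to 1.1 for H3 and 0.25 to 0.94 for H4. The summed levels gave log2 differences of 0.39 to 0.74 for H1, 0.41 to 1.01 for H3, 0.41 to 0.95 for H4 and 0.39 to 0.81 for all, and ratios -0.04 to 0.06 (H3 to H4), -0.29 to 0.04 (H1 to H4) and -0.19 to -0.06 (to H2A and H2B). The H3 median was 1.41 within numbers 3 and 4. Within numbers 1 and 2 and within 3 and 4, the H3 to H4 difference was -0.14 and 0.14, and that to H2A and H2B was 0.03 and -0.30. With the replicate block and without number 1, 2, 3 or 4 (added after seeing the data), all genes gave 2, 6, 3 and 39 higher and 27, 26, 42 and 83 lower, and members called were 0, 1, 0 and 1. The H3 median was 1.34 without number 2.

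Of the named genes none past the threshold changed sign. Hist1h3e was at 0.03 (upper quartile, library size only), 0.64 (limma voom), 0.26 and 0.20 (blocks), 0.66 (numbers 3 and 4), 0.34, 0.50, 0.21 and 0.02 (block without number 1, 2, 3 or 4) and -0.32 to 0.62 without a replicate (0.11, 0.20, 0.06 and 0.62 where positive). Leaving out a replicate turned the sign of no named member besides Hist1h3e and Hist1h4k. It moved Hist1h4k between -0.11 (without RIP 1) and 0.63, Lsm11 between -0.02 and 0.24, and H2afz between -0.48 and 0.03. Eri1 was at 0.12 (numbers 1 and 2) and 0.03 (block without number 3), Slbp at 0.06 (numbers 3 and 4), Lsm11 at -0.05 (block without number 3), and H2afz at 0.03 (block without number 2). The causes were not tested.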
